A study of Rattus norvegicus with 42 samples.

Results

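Retinoic acid, the acid form of vitamin A, reaches its targets through a short chain of proteins, and 9 genes of that chain were followed in rat metanephric mesenchyme, the embryonic tissue from which nephrons form. They were taken by gene symbol, and no measured value entered that rule, but they were chosen with earlier results of these data known. Stra6 encodes the membrane receptor through which cells take up retinol from its carrier protein. Aldh1a2 and Aldh1a1 encode retinaldehyde dehydrogenases, which make retinoic acid. Dhrs3 encodes a reductase that returns retinaldehyde to retinol. Crabp1 and Crabp2 encode the cellular retinoic acid binding proteins. Rara, Rarb and Rxra encode nuclear receptors, of which a retinoic acid receptor (RAR) acts on DNA as a partner of a retinoid X receptor (RXR). All 9 genes were among the 14218 genes named on the array, and all 9 passed the signal filter that left 11388 genes to be tested. In the developing kidney the stroma is known as a site of Aldh1a2 expression, and retinoic acid signalling through Rara and Rarb is known, from mouse mutants, to act on the ureteric bud through the stroma. Dhrs3 and Rarb are textbook examples of genes induced by retinoic acid, as is Crabp2 in several tissues.

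The mesenchyme was dissected from rat embryos at day 13.5 (E13.5) and freed of the ureteric bud, the epithelial tube that induces it in the embryo, after digestion with trypsin and DNase. There were 42 arrays in 21 groups of 2 samples that the labels call biological replicates, so p-values measure the spread between such samples. No strain, sex or genetic change was stated, and how many explants went into each RNA sample was not given in the sources used here. One group was fresh tissue, taken with no culture. The others were cultures on collagen-coated transwell filters in DMEM/F12 medium, and all of them, controls included, received insulin, transferrin, selenium, dexamethasone, prostaglandin, T3, recombinant FGF and recombinant TGF. No retinoid was named in this medium. Control cultures had no inducer and were taken after 1 and 2 days. The induced cultures received 1 of 3 inducers, and each series was sampled on days 1 to 5 and on day 7. The inducers were LIF, a cytokine of the interleukin 6 family, NGAL, an iron-carrying lipocalin also named Lcn2, and a preparation labelled ANX, whose content was not given in the sources used here. Since no control culture went past day 2, later days could be compared only with earlier days of the same inducer, with the other inducers or with fresh tissue.

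Values are log2 of the deposited intensities, and a pair of values gives replicate 1 and then replicate 2. A group mean under log2 5.79 counted as below the signal threshold. A change is the difference of log2 means with the standard error (SE) of a limma model over all 42 arrays. A gene was called where its Benjamini-Hochberg adjusted p over all 11388 genes was under 0.05. Where a group lay below the threshold, a floored change is also given, for which such means were set to the threshold. The share of all tested genes that was called is given beside the members' counts. Levels of different genes were not set against each other, because probe sets differ in response.

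The tissue carried the markers of its label. All 9 nephron progenitor genes on the array, Eya1, Sall1 and Wt1 among them, lay above the threshold in fresh tissue, as did 14 of 15 renal stroma genes. Of 10 ureteric bud genes 6 lay above the threshold there, namely Ret, Wnt11, Hoxb7, Gata3, Etv4 and Etv5. Calb1, Aqp2 and Elf5 lay below it in every group. Whether bud cells were left in the tissue was not tested. Of the erythroid genes 7 of 8, and of the endothelial genes 10 of 11, lay above the threshold in fresh tissue. In whole tissue, fewer cells of a type and less RNA per cell cannot be told apart. The arrays also differed in technical readouts. The log2 3'/5' ratio of dap, a bacterial transcript used as a spike-in, ran from 0.77 to 2.35, and its group mean was 1.07 in fresh tissue and 2.00 in control cultures of day 2. The signal of 5S rRNA was 6.32 to 6.62 in fresh tissue and 10.1 to 10.3 in control day 2 on the log2 scale, and the log2 3'/5' ratio of actin was 0.76 and 0.91 in fresh tissue and 1.55 and 1.57 in control day 2. The part of these readouts in the members' changes was not tested beyond the dap ratio. Across the 42 arrays the correlation of the dap ratio with Rxra was -0.54, and with each of the other 8 members it lay between -0.26 and 0.20.

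A direct repeat of the kind that RAR and RXR bind is the textbook element near the start of Rarb in human and mouse, so the rat sequence is shown. RefSeq promoter windows (GRCr8, 250 bases before to 50 bases after the start site) were found for all 9 members, with 1 window for each. The windows of Rarb, Aldh1a1 and Rara lie well inside the annotated spans of these genes. Any other start sites were not covered. They were searched on both strands for direct repeats of 4 hexamers spaced by 1, 2 or 5 bases. The hexamer AGGTCA is the textbook one, the variant AGTTCA was also allowed, a further one was GGGTCA, and the last was GGTTCA. Any of them could pair with any other, and matches that overlapped were all counted. The window of Rarb, chr15:11336142-11336441 on the plus strand, held 1 such repeat, spaced by 5 bases and running from base 25 to base 41 counted from the start site, shown in capitals with its spacer.
Rarb promoter window: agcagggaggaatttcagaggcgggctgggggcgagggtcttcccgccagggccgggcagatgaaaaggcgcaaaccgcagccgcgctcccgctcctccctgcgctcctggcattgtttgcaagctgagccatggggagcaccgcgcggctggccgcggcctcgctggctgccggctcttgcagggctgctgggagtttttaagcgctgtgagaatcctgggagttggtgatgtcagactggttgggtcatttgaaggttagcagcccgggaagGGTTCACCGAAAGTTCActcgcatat
Its first hexamer is GGTTCA and its second is AGTTCA. Repeats with this spacing were found in 128 of 33469 RefSeq windows of the same length (0.382%), and repeats with any of the 3 spacings in 260 (0.777%). The hexamers searched and the spacing of 5 bases cover the known Rarb element. Its match could thus be foreseen from that choice and is no independent find, and these shares are no test of it. The windows of the other 8 members held none, which says only that these letters are not in those 300 bases.

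Rarb, the receptor gene that carries this repeat, had its highest level in fresh tissue and was lower in every culture. Fresh tissue gave 9.72 and 9.67. Control cultures gave 8.70 and 8.19 on day 1 and 7.92 and 7.83 on day 2. All 4 control arrays lay below both fresh arrays, and the day 2 controls lay below the day 1 controls. LIF cultures gave 6.91 and 6.91 on day 1, 6.28 and 6.50 on day 2, 5.74 and 5.41 on day 3, 5.55 and 6.49 on day 4, 5.65 and 5.43 on day 5 and 5.61 and 5.94 on day 7. NGAL cultures gave 6.82 and 7.07 on day 1, 7.91 and 6.96 on day 2, 7.59 and 6.27 on day 3, 6.69 and 6.53 on day 4, 5.94 and 6.33 on day 5 and 6.29 and 5.83 on day 7. Under ANX the levels were 6.80 and 7.14 on day 1, 6.41 and 6.38 on day 2, 5.22 and 6.25 on day 3, 5.45 and 5.38 on day 4, 5.72 and 5.97 on day 5 and 5.49 and 5.67 on day 7. On day 1 the highest induced array, at 7.14, lay below the lowest control array of that day, at 8.19, and on day 2 only 1 NGAL array, at 7.91, lay within the control range. In the order of the 21 group means, fresh stood over control day 1 and control day 1 over control day 2 with no overlap, and only 4 of 20 neighbouring pairs were separated in this way. The means of 15 of the 21 groups lay above the threshold, so the lowest late values are close to the limit of the array.

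Crabp1, which encodes a protein that binds retinoic acid in the cytosol, followed a course like that of Rarb. Fresh tissue gave 11.80 and 11.73. Control cultures gave 9.90 and 11.02 on day 1 and 10.13 and 9.73 on day 2. The replicates of control day 1 lay 1.12 apart, and all 4 control arrays lay below both fresh arrays. The control day 1 array at 9.90 had a dap ratio of 1.97 and that at 11.02 a ratio of 0.77. The part of this ratio in the gap was not tested. LIF cultures gave 8.77 and 8.41 on day 1, 8.52 and 8.17 on day 2, 7.97 and 8.13 on day 3, 8.64 and 8.06 on day 4, 8.88 and 8.08 on day 5 and 8.20 and 7.76 on day 7. NGAL cultures gave 10.17 and 9.22 on day 1, 9.84 and 8.82 on day 2, 9.30 and 8.99 on day 3, 8.40 and 8.22 on day 4, 8.67 and 7.97 on day 5 and 7.25 and 7.20 on day 7. ANX cultures gave 9.04 and 9.50 on day 1, 9.27 and 8.25 on day 2, 8.56 and 8.05 on day 3, 8.80 and 8.30 on day 4, 8.99 and 7.14 on day 5 and 8.15 and 8.03 on day 7. Every LIF array lay below every control array, while on days 1 and 2 the NGAL arrays overlapped the controls. On day 7 both NGAL arrays lay below all LIF and ANX arrays of that day. All 21 group means lay above the threshold.

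Dhrs3, the reductase gene, made the largest early fall among the members. Its fresh levels were 9.05 and 9.04, and the control cultures gave 6.77 and 6.41 on day 1 and 6.30 and 6.46 on day 2. No cultured array reached 7, so fresh tissue stood apart from all 40 cultures. LIF cultures gave 6.0 and 5.56 on day 1, 5.64 and 5.63 on day 2, 5.66 and 5.31 on day 3, 5.29 and 5.64 on day 4, 5.77 and 5.22 on day 5 and 5.66 and 5.64 on day 7. NGAL cultures gave 6.01 and 5.77 on day 1, 6.07 and 6.14 on day 2, 6.85 and 5.58 on day 3, 5.71 and 5.48 on day 4, 5.53 and 5.07 on day 5 and 5.55 and 5.41 on day 7. ANX cultures gave 5.80 and 6.21 on day 1, 5.98 and 5.84 on day 2, 5.88 and 5.88 on day 3, 5.74 and 5.77 on day 4, 5.65 and 5.99 on day 5 and 5.44 and 6.25 on day 7. All 6 LIF groups lay below the threshold, as did NGAL from day 4 and ANX on day 4, and there only an upper bound on the level was measured. The other 11 group means, ANX on days 5 and 7 among them, lay above it.

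Stra6, the retinol uptake receptor gene, was read by 5 probe sets, of which the 1 with the highest mean was used. Fresh tissue gave 9.90 and 9.78 and control cultures gave 9.09 and 9.20 on day 1 and 8.83 and 8.67 on day 2. Each control day lay below fresh tissue and day 2 below day 1, with no overlap. LIF cultures gave 7.98 and 8.22 on day 1, 8.41 and 8.60 on day 2, 7.90 and 7.24 on day 3, 7.98 and 7.53 on day 4, 7.72 and 7.19 on day 5 and 7.24 and 7.47 on day 7. NGAL cultures gave 8.70 and 8.41 on day 1, 8.83 and 8.52 on day 2, 8.31 and 7.41 on day 3, 7.29 and 6.83 on day 4, 7.76 and 7.01 on day 5 and 5.79 and 7.17 on day 7. ANX cultures gave 8.07 and 8.56 on day 1, 7.99 and 8.38 on day 2, 8.17 and 7.57 on day 3, 8.29 and 8.57 on day 4, 8.03 and 8.31 on day 5 and 8.06 and 8.31 on day 7. The ANX levels stayed between 7.57 and 8.57 throughout, whereas the NGAL levels ran from 8.83 on day 2 down to 5.79 and 7.17 on day 7.

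Aldh1a2, the main retinaldehyde dehydrogenase gene of the early embryo, had about the same level in control culture as in fresh tissue. Fresh tissue gave 12.38 and 12.50, and control cultures gave 12.40 and 12.50 on day 1 and 12.43 and 12.44 on day 2. LIF cultures gave 11.99 and 11.65 on day 1, 11.67 and 11.67 on day 2, 11.58 and 12.10 on day 3, 11.57 and 12.05 on day 4, 11.62 and 11.63 on day 5 and 11.19 and 11.54 on day 7. NGAL cultures gave 12.06 and 11.96 on day 1, 12.37 and 11.90 on day 2, 12.44 and 12.31 on day 3, 12.33 and 12.42 on day 4, 11.62 and 12.24 on day 5 and 12.08 and 11.37 on day 7. ANX cultures gave 11.97 and 12.15 on day 1, 11.54 and 11.34 on day 2, 11.47 and 12.13 on day 3, 11.32 and 11.31 on day 4, 11.45 and 10.94 on day 5 and 11.36 and 11.43 on day 7. All 24 LIF and ANX arrays lay below all 6 fresh and control arrays, while 2 NGAL arrays, 1 on day 3 and 1 on day 4, lay above the lowest of them. Its range over all 42 arrays, 10.94 to 12.50, was narrow beside that of Rarb, 5.22 to 9.72.

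Aldh1a1, which encodes another enzyme of the same family, was the one member that was below the threshold in fresh tissue and rose in late culture. Fresh tissue gave 4.31 and 4.41 and control cultures gave 4.16 and 4.33 on day 1 and 4.21 and 4.50 on day 2. All means up to day 3 lay below the threshold, so no order among them can be read. LIF cultures gave 4.40 and 4.16 on day 1, 4.24 and 4.56 on day 2, 4.20 and 4.21 on day 3, 4.45 and 5.89 on day 4, 5.46 and 7.51 on day 5 and 5.41 and 9.85 on day 7. NGAL cultures gave 4.36 and 5.09 on day 1, 4.30 and 4.19 on day 2, 4.40 and 4.38 on day 3, 5.39 and 5.94 on day 4, 5.91 and 8.01 on day 5 and 8.46 and 9.57 on day 7. ANX cultures gave 4.09 and 4.12 on day 1, 4.13 and 4.07 on day 2, 4.06 and 4.93 on day 3, 4.86 and 6.98 on day 4, 7.15 and 7.81 on day 5 and 8.48 and 9.58 on day 7. Only 7 of the 21 group means lay above the threshold, all of them on days 4, 5 and 7, and the gene entered the test through these groups alone. Its replicates were the most uneven of the 9 members, with a pooled replicate SD of 0.97. The pair of LIF day 7 arrays, at 5.41 and 9.85, lay on both sides of the threshold.

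Crabp2, the other binding protein gene, varied over a narrower range and differed by inducer. Fresh tissue gave 11.21 and 11.27, and control cultures gave 11.19 and 11.44 on day 1 and 11.00 and 11.30 on day 2. LIF cultures gave 11.32 and 11.71 on day 1, 11.51 and 11.74 on day 2, 11.65 and 11.88 on day 3, 11.60 and 11.37 on day 4, 11.60 and 11.73 on day 5 and 11.36 and 10.76 on day 7. NGAL cultures gave 11.12 and 11.38 on day 1, 11.33 and 11.09 on day 2, 10.61 and 11.49 on day 3, 10.64 and 11.21 on day 4, 10.86 and 10.74 on day 5 and 9.36 and 10.39 on day 7. ANX cultures gave 10.72 and 11.08 on day 1, 10.59 and 11.00 on day 2, 11.15 and 10.86 on day 3, 11.10 and 11.21 on day 4, 11.14 and 11.01 on day 5 and 10.58 and 10.93 on day 7. On each of days 1 to 5 both LIF arrays lay above both ANX arrays of that day. The 5 highest group means were those of LIF on days 1 to 5, and the lowest was that of NGAL on day 7, which was separated from the next one.

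Rara and Rxra varied little. Rara ran from 8.17 to 8.90 over the 42 arrays with a median of 8.58 and a pooled replicate SD of 0.14. Its lowest group mean, 8.33, was that of LIF on day 5, and its highest, 8.76, that of NGAL on day 3. Rxra ran from 6.05 to 6.91 with a median of 6.43 and a pooled replicate SD of 0.17. For neither gene was any of the 20 neighbouring pairs of groups separated.

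**Figure D1:**
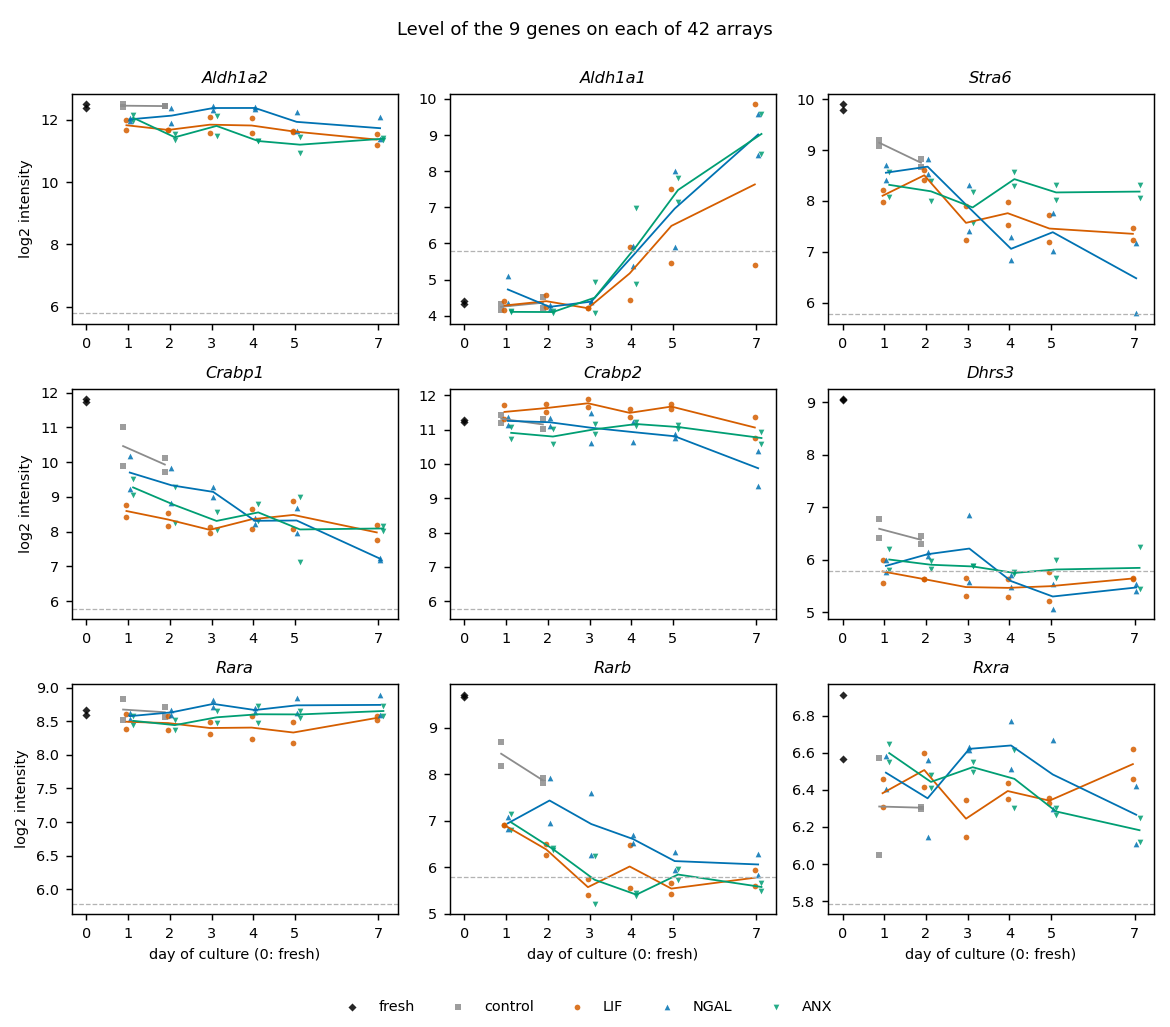
Level of each of the 9 genes (vertical axis, log2 intensity, a scale of its own in each panel) by day of culture (horizontal axis, 0 for fresh tissue); each point is 1 array, the lines join the means of 2 arrays, and the dashed line is the signal threshold of log2 5.79. Rarb, Crabp1 and Dhrs3 are highest in fresh tissue, Aldh1a1 passes the threshold only from day 4, and Rara stays between 8.17 and 8.90.

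The first comparison asked what culture without an inducer does. After 1 day, Dhrs3 and Rarb were lower than in fresh tissue and no member was higher. Dhrs3 fell by 2.45 on the log2 scale (SE 0.29, adjusted p = 7.51e-06), to 5.48-fold less. Rarb fell by 1.25 (SE 0.35, adjusted p = 0.0367). These were 2 of 9 members, against 6.06% of all genes called in either direction, 3.80% higher and 2.26% lower, and the members' median change was -0.43 against 0.00 for all genes. Crabp1 changed by -1.31 (SE 0.47, adjusted p = 0.10) and Stra6 by -0.70 (SE 0.35, adjusted p = 0.233), and neither was called. Aldh1a2, Rara and Crabp2 stood at 0.01, 0.05 and 0.07. The call of Rarb was lost without any 1 of the 4 arrays compared, with adjusted p from 0.0877 to 0.192 and changes from -1.51 to -0.99.

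After 2 days 4 of the 9 members were lower than in fresh tissue and none was higher, against 22.2% of all genes called in either direction, 9.47% higher and 12.7% lower. Dhrs3 fell by 2.66 (SE 0.29, adjusted p = 1.42e-06) and Rarb changed by -1.82 (SE 0.35, adjusted p = 0.000949). Crabp1 fell by 1.84 (SE 0.47, adjusted p = 0.00778), to 3.57-fold less. Stra6 fell by 1.09 (SE 0.35, adjusted p = 0.0276). Rxra, at -0.44 (SE 0.17, adjusted p = 0.0657), was not called. For Aldh1a2 the change was 0.00 with a 95% interval of -0.49 to 0.49. Without 1 of the 4 arrays Stra6 was no longer called in any of the 4 fits (adjusted p 0.0946 to 0.138), and Crabp1 was not called without fresh replicate 1 or without control day 2 replicate 2 (highest adjusted p 0.0749).

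Cell type markers moved between the same arrays. The summed intensity of 11 endothelial genes was 3382 to 3536 in fresh tissue, 2499 to 3279 in control day 1 and 1618 to 1669 in control day 2, and 6 of 10 measured endothelial genes were called lower on day 2. The sum of 8 erythroid genes went from 16245 to 17922 in fresh tissue down to 3084 to 4051 on day 2. The sum of 15 renal stroma genes went the other way, from 15603 to 15883 in fresh tissue up to 28993 to 29964 on day 2, although 3 of its genes were called higher and 1 lower, and Tbx18 and Foxp2 were highest in fresh tissue. The sum of 8 skeletal muscle genes went from 1219 to 1278 up to 3612 to 4149, with 4 of 7 measured ones called higher. Of these 8 genes 4 lay above the threshold in fresh tissue and 6 in control day 2, so some passed the filter through cultures alone. Of the nephron progenitor genes 4 of 9 were called lower, and the early nephron sum went from 2156 to 2260 down to 1165 to 1297. Of all tested genes 9.47% were called higher and 12.7% lower in control day 2, and the stroma counts lay near these shares. The neural crest and neuron genes gave 1266 to 1329 in fresh tissue and 1353 to 1366 on day 2. The part of these shifts in the members' changes was not tested.

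The next comparison set each inducer against control cultures as the mean of days 1 and 2, with 4 arrays on each side. The 3 contrasts share the same 4 control arrays, so their values are given side by side and not correlated. With LIF, 4 of 9 members were lower than in control and none was higher, against 24.0% of all genes called, 11.4% higher and 12.6% lower. Rarb fell by 1.51 (SE 0.25, adjusted p = 0.000179), to 2.85-fold less. Crabp1 fell by 1.72 (SE 0.33, adjusted p = 0.000745). Aldh1a2 fell by 0.70 (SE 0.17, adjusted p = 0.00461) and was lower on 4 of 4 LIF arrays than on any control. Dhrs3 fell by 0.78 (SE 0.20, adjusted p = 0.00769), or by 0.70 when floored. Stra6 changed by -0.64 (SE 0.25, adjusted p = 0.0598). The members' median change was -0.64, and that of all genes was 0.03.

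With ANX, 4 of 9 members were lower and none was higher, against 20.3% of all genes called, 11.2% higher and 9.12% lower. Rarb fell by 1.48 (SE 0.25, adjusted p = 0.000264), Aldh1a2 by 0.69 (SE 0.17, adjusted p = 0.00568), Crabp1 by 1.18 (SE 0.33, adjusted p = 0.0148) and Stra6 by 0.70 (SE 0.25, adjusted p = 0.0484). Dhrs3, at -0.53 (SE 0.20, adjusted p = 0.0675), was not called. The call of Crabp1 was lost in 4 of the 8 repeats with an array removed (adjusted p up to 0.0781), and that of Stra6 in 7 of 8 (adjusted p up to 0.180).

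With NGAL none of the 9 members was called by limma (smallest adjusted p 0.253), and neither was any other gene (0% of 11388). At an unadjusted p under 0.05 there were 3 members, and 799 of all genes. Rarb stood at -0.97 (SE 0.25, adjusted p = 0.253), with a 95% interval of -1.48 to -0.45. Crabp1 stood at -0.68 with an interval of -1.37 to 0.01, Dhrs3 at -0.49 with -0.91 to -0.07, and Aldh1a2 at -0.37 with -0.72 to -0.02. With array weights 1 member was called, Rarb, at adjusted p = 0.0496.

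**Figure D2:**
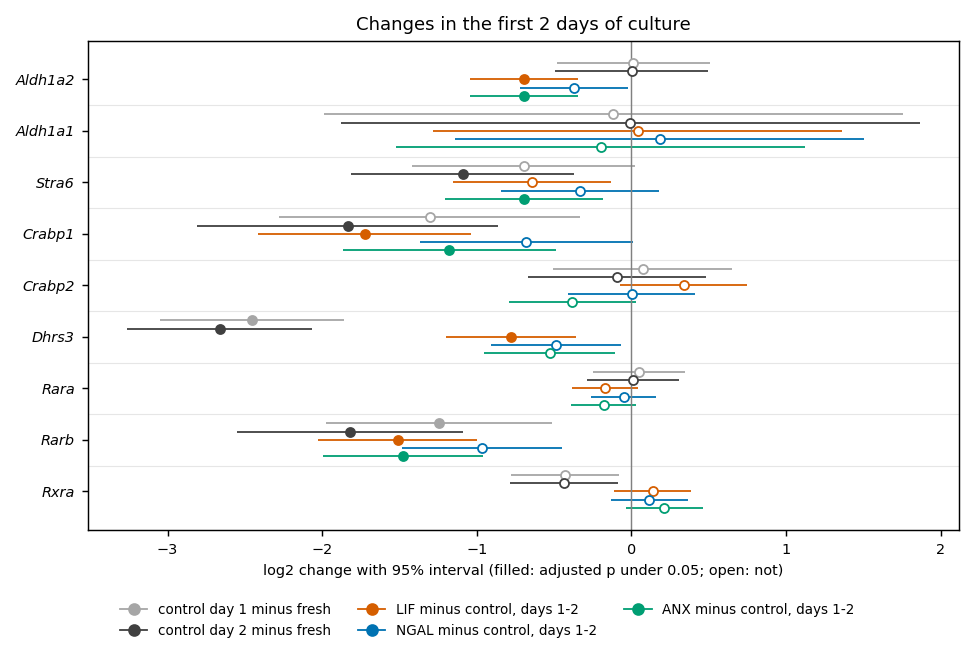
Log2 change of each of the 9 genes (horizontal axis, with 95% intervals) in control cultures of day 1 and day 2 against fresh tissue and in LIF, NGAL and ANX cultures of days 1 and 2 against control; filled points are called and open points are not. Aldh1a1 lay below the signal threshold in all of these groups. Dhrs3, Crabp1 and Rarb show the filled points furthest left in control day 2 against fresh tissue. Rarb has filled points for LIF and ANX, at -1.51 and -1.48.

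Here too the marker lists differed between the groups. The sum of the renal stroma genes was 28993 to 29964 in control day 2, 11340 to 12961 in LIF day 2, 25520 to 26954 in NGAL day 2 and 14733 to 15188 in ANX day 2. Of the 15 stroma genes 9 were called lower with LIF and 8 with ANX, against 12.6% and 9.12% of all genes. The endothelial sum was 1618 to 1669 in control day 2, 952 to 968 in LIF day 2, 1302 to 1883 in NGAL day 2 and 1314 to 1662 in ANX day 2. The neural crest and neuron sum was 1353 to 1366 in control day 2, 2408 to 2763 in LIF day 2, 1410 to 1777 in NGAL day 2 and 2102 to 2228 in ANX day 2. Their part in the lower levels of Rarb, Crabp1 and Aldh1a2 was not tested.

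The 5 Stra6 probe sets did not give the same result in every comparison. In control day 2 against fresh all 5 were lower, with changes of -1.09, -1.03, -0.73, -1.04 and -0.95. In LIF against control the used probe set, with a mean of 8.08 over all arrays, and the next in level, with a mean of 8.07, gave -0.64 and -0.65. The other 3, with means of 7.79, 7.28 and 5.23, gave -0.03, 0.00 and -0.02. In ANX against control the first pair gave -0.70 and -0.82 and the other 3 gave -0.10, -0.11 and 0.11. Thus the lower Stra6 level in ANX than in control culture was read by 2 of the 5 probe sets. The order is by mean level throughout, and the last of the 5 had its mean under the threshold.

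**Figure D3:**
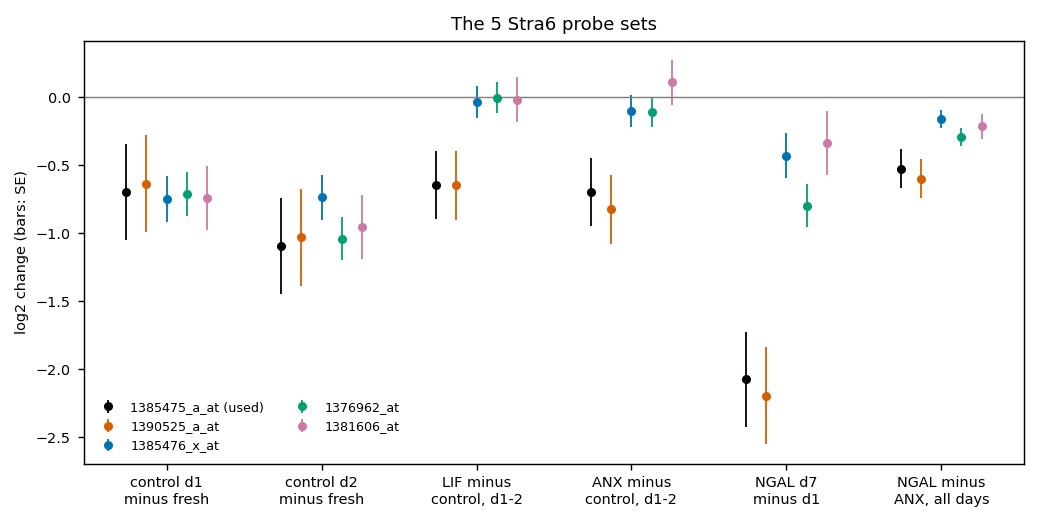
Log2 change (vertical axis, bars are SE) read by each of the 5 Stra6 probe sets in 6 comparisons. All 5 are below 0 in control day 2 against fresh, while in LIF and ANX against control only the used probe set and the next in mean level are far below 0, at -0.64 and -0.65 with LIF.

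The third comparison followed each inducer from day 1 to day 7, with 2 arrays on each side. Aldh1a1 had passed the signal filter through late groups, so it was tested in a fit with no filter, over all 14218 genes, in which it rose with all 3 inducers. The change was 3.35 with LIF (adjusted p = 0.0214, floored 1.85), 4.29 with NGAL (adjusted p = 0.00305, floored 3.23) and 4.93 with ANX (adjusted p = 0.000965, floored 3.24), with an SE of 0.90 in each. In these fits 3.43%, 5.46% and 5.09% of all genes were called higher. The change under LIF rested on 1 array. It was 1.13 without LIF day 7 replicate 2 and 5.57 without replicate 1, and with the filter in place the call was lost in 3 of the 4 repeats with an array removed (adjusted p up to 0.400). Early nephron and epithelium genes moved with it on the same arrays. With the filter in place 4.39%, 6.92% and 6.40% of all genes were called higher with LIF, NGAL and ANX. Of the 11 measured early nephron and epithelium genes it was 6, 7 and 8. Of the 12 such genes on the array, 7, 8 and 7 lay above the threshold on day 1 of LIF, NGAL and ANX. On day 7 it was 11 with each inducer. Some thus passed the filter only through groups where they were high, and these counts describe the arrays without being independent support. The sum of 12 such genes was 3826 on the LIF day 7 array with Aldh1a1 at 5.41 and 9856 on the array with 9.85. For NGAL day 7 the sums were 4274 and 8779 beside Aldh1a1 levels of 8.46 and 9.57. For ANX day 7 they were 7084 and 7697 beside 8.48 and 9.58. The array with the higher Aldh1a1 level in each of these pairs also had the higher dap ratio. That ratio was 2.30 against 1.19 with LIF, 1.97 against 1.32 with NGAL and 2.20 against 1.17 with ANX. Its part in the rise of Aldh1a1 was not tested in the fit with no filter. Endothelial genes went down in the same comparisons, with 5, 6 and 7 of 10 measured ones called lower for LIF, NGAL and ANX. Of all tested genes 6.51%, 8.60% and 7.43% were called lower. The part of these lists in the members' changes was not tested.

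Among the other 8 members, 1 was called with LIF, against 10.9% of all tested genes, 4.39% higher and 6.51% lower. Rarb fell by 1.13 (SE 0.35, adjusted p = 0.0408, floored -1.12). That call was lost without any 1 of the 4 arrays (adjusted p 0.0595 to 0.189). With ANX 1 of the 8 was called, against 13.8% of all genes, 6.40% higher and 7.43% lower. Rarb fell by 1.39 (SE 0.35, adjusted p = 0.0101, floored -1.18). It was not called without ANX day 1 replicate 2 or without day 7 replicate 1 (highest adjusted p 0.104). With NGAL 3 of the 8 were called, against 15.5% of all genes, 6.92% higher and 8.60% lower. Crabp1 fell by 2.48 (SE 0.47, adjusted p = 0.00111), Stra6 stood at -2.07 (SE 0.35, adjusted p = 0.00038) and Crabp2 at -1.38 (SE 0.28, adjusted p = 0.00197). Crabp2 was not called without NGAL day 7 replicate 1, at -0.86 (adjusted p 0.101). The Stra6 change in NGAL ranged from -2.77 to -1.38 with an array removed. It ranged from -2.20 to -0.33 over the 5 probe sets and was called on 3 of them.

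Whether these changes differed between inducers was tested by the difference of the day 7 against day 1 changes. No member passed. Stra6 came closest, with a difference of -1.94 between NGAL and ANX (SE 0.50, adjusted p = 0.0829), followed by Crabp2 with -1.23 (SE 0.40, adjusted p = 0.160). In the moderated F-test of inducer by day over all 6 days, limma called 0 of 9 members and 4 of 11388 genes (0.0351%), and at an unadjusted p under 0.05 there were 1 member, Stra6, and 660 genes. The smallest adjusted p among members was 0.398. The members' courses are therefore given by inducer above with no claim that their change over time differs, that of Stra6 under NGAL and ANX included. Differences in mean level are a separate question, taken up next.

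The fourth comparison set pairs of inducers against each other as the mean of all 6 days, with 12 arrays on each side. Crabp2 was higher with LIF than with either other inducer, by 0.67 over NGAL (SE 0.11, adjusted p = 6.91e-05) and by 0.57 over ANX (SE 0.11, adjusted p = 0.00438). Aldh1a2 and Rarb were higher with NGAL than with either other inducer. Aldh1a2 differed by -0.40 in LIF minus NGAL (SE 0.10, adjusted p = 0.0019) and by 0.56 in NGAL minus ANX (SE 0.10, adjusted p = 0.000134). Rarb differed by -0.65 in LIF minus NGAL (SE 0.14, adjusted p = 0.000846, floored -0.58) and by 0.70 in NGAL minus ANX (SE 0.14, adjusted p = 0.000661, floored 0.59). Rara was lower with LIF than with NGAL, by -0.24 (SE 0.06, adjusted p = 0.00188). Stra6 was lower with NGAL than with ANX, by -0.52 (SE 0.14, adjusted p = 0.00604).

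Many genes differed between these pairs. The 4 members called between LIF and NGAL, 1 higher and 3 lower, stood against 41.7% of all genes, 21.5% higher and 20.3% lower. The 3 called between NGAL and ANX, 2 higher and 1 lower, stood against 37.5%, with 15.3% higher and 22.2% lower. The 1 called between LIF and ANX stood against 5.01%, with 1.63% higher and 3.37% lower. Thus the members' shares for LIF and NGAL and for NGAL and ANX lay near the background. Over days 1 and 2 alone, 0 of the 9 members were called by limma in any of the 3 pairs, against 5.17%, 2.12% and 0.623% of all genes for LIF and NGAL, NGAL and ANX, and LIF and ANX. Stra6 then stood at 0.36 in NGAL minus ANX (adjusted p = 0.513), the opposite sign. Rarb stood at -0.55 in LIF minus NGAL (adjusted p = 0.211) and Aldh1a2 at -0.32 (adjusted p = 0.282). Over days 3 to 7 the count was again 4 between LIF and NGAL (39.0% of all genes) and 0 between LIF and ANX (2.26%), and Stra6 stood at -0.97 in NGAL minus ANX (adjusted p = 0.000188). Crabp2 in LIF minus ANX stood at 0.72 on days 1 and 2 (adjusted p = 0.119) and at 0.50 on days 3 to 7 (adjusted p = 0.0592). Of the renal stroma genes 12 of 15 were called higher with NGAL than with ANX, and 13 of 15 lower with LIF than with NGAL. Of 7 skeletal muscle genes, all 7 were called higher with NGAL than with ANX and 5 lower with LIF than with NGAL. The part of these lists in the differences of Aldh1a2 and Rarb was not tested.

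**Figure D4:**
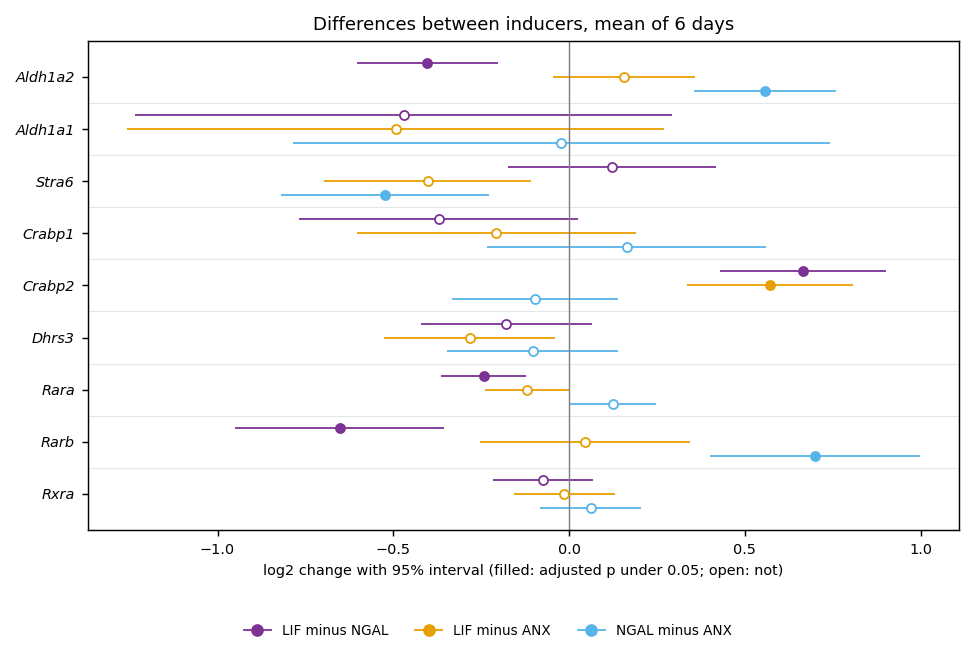
Log2 difference between inducers as the mean of 6 days (horizontal axis, with 95% intervals) for each of the 9 genes; filled points are called and open points are not. Crabp2 lies to the right for LIF minus NGAL and LIF minus ANX, at 0.67 and 0.57, and Rarb lies to the left for LIF minus NGAL, at -0.65, and to the right for NGAL minus ANX, at 0.70.

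The last comparison set the mean of the 3 induced day 7 groups against fresh tissue, with 6 arrays against 2. Of the 8 members other than Aldh1a1, 7 were called, all of them lower, against 34.5% of all genes called, 15.9% higher and 18.6% lower. Crabp1 fell by 4.00 (SE 0.38, adjusted p = 2.74e-08), to 16.0-fold less, and Rarb by 3.89 (SE 0.29, adjusted p = 3.94e-10, floored -3.81). Dhrs3 fell by 3.39 (SE 0.24, adjusted p = 1.37e-10, floored -3.24). Stra6, on the used probe set, changed by -2.50 (SE 0.29, adjusted p = 3.83e-07). Aldh1a2 fell by 0.94 (SE 0.20, adjusted p = 0.000596), Crabp2 by 0.68 (SE 0.23, adjusted p = 0.0233) and Rxra by 0.41 (SE 0.14, adjusted p = 0.0233). Aldh1a1, in the fit with no filter, rose by 4.20 (SE 0.74, adjusted p = 0.000114, floored 2.77), where 12.7% of all genes were called higher. Rara was at 0.02 with a 95% interval of -0.22 to 0.27.

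Taken inducer by inducer on day 7, Crabp1, Rarb, Dhrs3 and Stra6 were lower than in fresh tissue with each. For Stra6 the change was -2.49 with LIF, -3.36 with NGAL and -1.66 with ANX. These contrasts share the 2 fresh arrays. Crabp2 was called lower with NGAL alone, at -1.37 (adjusted p = 0.00056), and stood at -0.18 with LIF (adjusted p = 0.683) and -0.49 with ANX (adjusted p = 0.237). Its call in the mean of the 3 inducers was lost in 4 of the 8 repeats with an array removed (adjusted p up to 0.152). The call of Rxra was lost in 2 of 8, without fresh replicate 2 or NGAL day 7 replicate 2 (adjusted p up to 0.388), and with the dap ratio as a covariate, at -0.26 (adjusted p = 0.0705). Marker lists moved in the same comparison. Called lower were 8 of 10 measured endothelial, 5 of 7 erythroid and 4 of 9 nephron progenitor genes, against 18.6% of all genes. Called higher were 8 of 11 early nephron genes, against 15.9% of all genes. Of the 12 early nephron genes on the array, 6 lay above the threshold in fresh tissue and 11 on day 7 with each inducer. Some thus passed the filter through cultures alone. The part of these marker lists in the members' changes was not tested. No control of day 7 existed here, so inducer and time in culture cannot be told apart in this comparison.

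Across the 21 group means, Rarb, Crabp1, Dhrs3 and Stra6 varied together. Pearson's r was 0.91 between Rarb and Crabp1, 0.84 between Rarb and Dhrs3, 0.86 between Crabp1 and Dhrs3, 0.86 between Crabp1 and Stra6, 0.75 between Dhrs3 and Stra6 and 0.72 between Rarb and Stra6. Aldh1a2 had r of 0.77 with Rarb and 0.67 with Crabp1, and of 0.49 with Dhrs3 and 0.33 with Stra6. Rara and Crabp2 had r of -0.64, and Aldh1a1 had negative r with 7 of the 8 other members. The points share arrays and the fresh group, which lay far from the rest for 4 of these genes, so the values describe the pattern and carry no test.

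Among all other tested genes, those whose 21 group means were most like each member were also noted by Pearson's r. For Rarb these were Cd93 (0.951), Zfp703 (0.951) and Kdr (0.949). For Crabp1 they were Map3k7 (0.945), Rasip1 (0.940) and Rasl12 (0.932), and for Stra6 they were Rasl12 (0.937), Dnmt3a (0.930) and Nme4 (0.914). Thus Rasl12 was among the 3 nearest for both Crabp1 and Stra6. For Dhrs3 they were Acot1 (0.952), Oprk1 (0.938) and LOC102550246 (0.937), and for Aldh1a1 Pou3f3 (0.974), Egfl6 (0.959) and Tmem35a (0.956). For Aldh1a2 they were Tram1l1 (0.920), Myh10 (0.919) and Dact3 (0.913), and for Crabp2 Plppr3 (0.872), Trmt5 (0.852) and Cript (0.849). Rara and Rxra, whose group means spanned under 1, were left out. These genes were picked as the highest r among all tested genes, so the values carry no test. Only 11 of the 21 group means of Dhrs3 and 7 of those of Aldh1a1 lay above the threshold. For Dhrs3 the fresh group also lay far from all others.

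Other genes of the retinoid pathway were read from a list of 38, of which 32 were named on the array and 21 measured. In control day 1 against fresh 1 of the 21 was called higher and 2 lower, against 6.06% of all genes in either direction, and in control day 2 the counts were 2 and 4, against 22.2%. Their median changes were -0.15 and -0.06, against 0.00 and -0.05 for all genes. Rdh10, which encodes the retinol dehydrogenase that makes retinaldehyde in the embryo, fell by 2.00 in control day 2 (SE 0.48, adjusted p = 0.0046). Fresh tissue had 8.63 and 8.79, control day 1 had 7.04 and 8.33, and control day 2 had 6.70 and 6.72. The control day 1 array at 7.04 was the one of that pair with the higher dap ratio. Fabp5, a fatty acid binding protein that can carry retinoic acid, fell by 1.16 on day 1 and by 1.39 on day 2 (SE 0.18 for each). Cyp26b1, a cytochrome that breaks down retinoic acid, fell by 0.77 and 0.82 (SE 0.16 for each). Ncoa1, a nuclear receptor coactivator, rose by 1.16 on day 2 (SE 0.24), and Rxrg, the third RXR gene, rose by 1.14 (SE 0.39).

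Against control cultures of days 1 and 2, 4 of the 21 genes were called higher and 3 lower with LIF (24.0% of all genes), 3 and 3 with ANX (20.3%), and 0 and 0 with NGAL (0%, limma). Rdh10 was higher than in control by 1.99 with LIF (SE 0.34, adjusted p = 0.000225) and by 1.76 with ANX (SE 0.34, adjusted p = 0.000771). Its mean was 8.71 in fresh tissue, 7.20 over these controls, 9.19 with LIF and 8.96 with ANX. The LIF arrays gave 9.66 and 9.42 on day 1 and 9.26 and 8.42 on day 2, all of them above all 4 controls. Fabp5 was higher than in control by 1.20 with LIF and by 1.05 with ANX (SE 0.13 for each). Its control means were 10.60 on day 1 and 10.37 on day 2, below the fresh mean of 11.77. On these days the means were 11.85 and 11.53 with LIF and 11.56 and 11.52 with ANX, close to fresh tissue. Rxrg fell by 1.71 with LIF and by 1.58 with ANX (SE 0.27 for each), and Ncoa1 fell by 0.81 and 0.78 (SE 0.17 for each). Lrat, which stores retinol as esters, was above the threshold in 1 group only, LIF day 1, at 6.75 and 6.01, and entered the count through that group.

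Aldh1a3, the third gene of the retinaldehyde dehydrogenase family, also passed the filter through late groups alone, with 9 of 21 group means above the threshold, all of them of induced cultures on days 4, 5 and 7. In the fit with no filter it rose between day 1 and day 7 with each inducer. The changes were 2.76 with LIF (adjusted p = 0.00449, floored 1.61), 2.71 with NGAL (adjusted p = 0.00321, floored 2.39) and 4.42 with ANX (adjusted p = 2.53e-05, floored 3.45), with an SE of 0.57 in each. Day 7 arrays gave 6.17 and 8.63 with LIF, 7.51 and 8.83 with NGAL and 9.27 and 9.21 with ANX. As for Aldh1a1, the second LIF array of day 7, with the higher dap ratio, was the higher one. Fabp5 fell over the same interval by 1.24, 0.97 and 1.08. On day 7 against fresh 2 of the 21 genes were called higher, Aldh1a3 and Ncoa1, and 5 lower, a share close to the 34.5% of all genes. Aldh1a3 entered that count through its late groups alone. In the fit with no filter it rose by 3.23 against fresh (SE 0.47, adjusted p = 1.18e-05), where 12.7% of all genes were called higher. Among the genes called lower was Rarg, the third RAR gene, which fell by 0.87 (SE 0.19, floored -0.73). Over all days Rxrg was lower with LIF than with NGAL by -1.39 and higher with NGAL than with ANX by 1.40 (SE 0.16 for each). Cyp26a1 and Rbp4 lay below the threshold in all 21 groups.

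**Figure D5:**
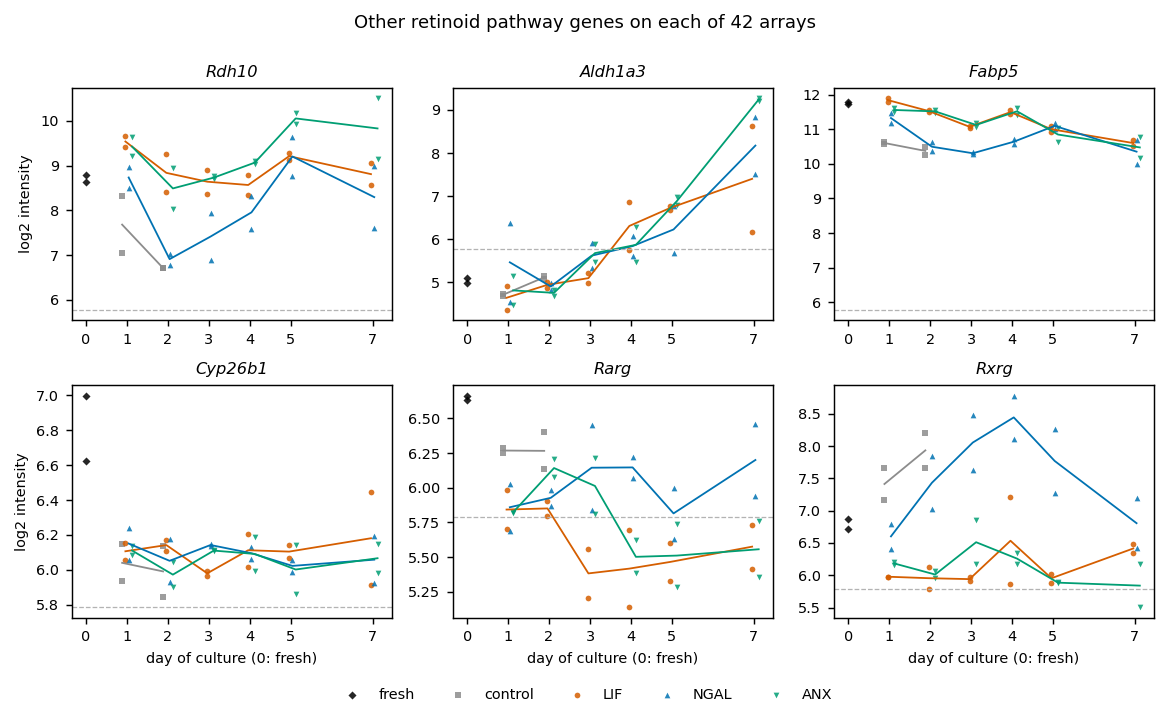
Level of 6 other retinoid pathway genes (vertical axis, log2 intensity, a scale of its own in each panel) by day of culture (horizontal axis, 0 for fresh tissue); each point is 1 array, the lines join the means of 2 arrays, and the dashed line is the signal threshold of log2 5.79. Rdh10 drops to 6.70 and 6.72 in control day 2, and Aldh1a3 passes 9 in ANX day 7.

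Textbook genes of the retinoic acid response were read from a list of 25, of which 15 were named on the array and 14 measured. Cyp26b1 is on both lists. The genes did not move one way. In control day 2 against fresh 1 was called higher and 3 lower (22.2% of all genes in either direction). With LIF against control the counts were 1 and 3 (24.0%), with ANX 2 and 2 (20.3%) and with NGAL 0 and 0 (0%, limma). In induced day 7 against fresh they were 1 and 4, close to the share of all genes (34.5%). The list's medians in control day 2 and induced day 7 against fresh were -0.15 and -0.32, against -0.05 and -0.04 for all genes. Rarres2, the chemerin gene, rose by 1.38 in control day 2 (SE 0.26, adjusted p = 0.000633) and by 1.5 on induced day 7 (SE 0.21, adjusted p = 6.81e-06), where Rarb and Dhrs3 were lower. Against control it was lower, like Rarb, by -1.13 with LIF (SE 0.18, adjusted p = 0.000131) and by -0.75 with ANX (SE 0.18, adjusted p = 0.00547). Meis2, a homeobox gene, fell by 1.75 on induced day 7 (SE 0.31, adjusted p = 0.000114), and Meis1 by 0.64 (SE 0.18, adjusted p = 0.00909). Meis1 was also lower with LIF than in control, by -0.57 (SE 0.16, adjusted p = 0.0111), and is one of the stroma markers above. Hoxb2 fell by 1.07 in control day 2 (SE 0.33, adjusted p = 0.0225) and was higher by 0.87 with LIF and by 0.88 with ANX than in control (SE 0.23 for each).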

How the data were processed

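Total RNA of 42 samples was measured on Affymetrix rat expression arrays. The deposited values are linear intensities, normalized with RMA by the authors, per the submitters' processing notes, and their log2 was taken here. Per the labels, 1 µg of RNA was labelled in a single amplification cycle, and array medians were 83.3 to 88.4. Of 31099 probe sets, 20832 had 1 gene name, 436 had several and 9831 had none, and the probe set with the highest mean stood for each of 14218 genes. Genes were kept where a group mean passed the 40th percentile of all values (log2 5.79), which left 11388.

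One limma model (version 3.58.1, R 4.3.3) with a mean per group and an intensity trend was fitted to all 42 arrays, with 21 residual degrees of freedom and Benjamini-Hochberg adjustment at 0.05. Figures used matplotlib 3.10.9. The model was first tested on simulated data. Intervals are at 95%. The number of arrays limits the precision. Named genes were the 9 members, the called genes of the 2 retinoid lists and, for each member whose group means spanned over 1, the 3 genes with the highest Pearson's r. The members and gene lists were chosen with earlier results of these data known. Same-numbered replicates of 210 pairs of groups deviated together with r from -0.65 to 0.74 (median 0.0652), so the numbers were not used as pairs. Alternatives were another filter, quantile normalization, the mean of probe sets, no variance trend, array weights, a replicate block, the dap ratio as a covariate, the arrays of a comparison alone, single days and the removal of each array. Aldh1a1 and Aldh1a3, which passed the filter through late groups alone, were tested for late changes in the fit with no filter. Fits over arrays with a dap ratio under 1.7 and floored changes were chosen after seeing the data.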

Additional observations from a re-analysis of the deposited data

How the results depend on the processing

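Of the members' values recomputed under another setting, 1191 kept their side of the threshold, 37 were no longer called, 21 were newly called and 1 reversed. The reversal was Stra6 in NGAL minus ANX, which stood at 0.36 (adjusted p = 0.513) over days 1 and 2 against -0.52 over all days, and the cause was not tested. The number of members called between LIF and ANX was 1, and became 2 with the mean of probe sets or the dap covariate and 0 with days 1 and 2 alone or days 3 to 7 alone, where fewer arrays enter. For NGAL against control, 0 became 1 with array weights. For LIF day 7 against day 1, 2 became 0 with array weights, with the compared arrays alone and with low dap arrays alone. With the compared arrays alone NGAL day 7 against day 1 went from 4 to 2 and ANX day 7 against day 1 from 2 to 4. LIF against control went from 4 to 2 on day 1 alone, and ANX against control from 4 to 1 on day 1 and to 2 on day 2. LIF against NGAL and NGAL against ANX went from 4 and 3 to 0 and 0 over days 1 and 2. With low dap arrays, control day 1 against fresh went from 2 to 1 and ANX day 7 against day 1 from 2 to 1. No low dap fit was possible for control day 2, since both arrays had a high ratio. With the replicate block, Crabp1 became called in control day 1 against fresh (adjusted p = 0.0422) and in ANX day 7 against day 1 (adjusted p = 0.0441), and it changed no other call. With 1 array removed, over 1440 values, 37 calls were lost, 6 were gained and 0 reversed. With 1 array removed, the number of members called ranged from 1 to 2 in control day 1, 2 to 3 in control day 2, 2 to 4 in ANX against control, 4 to 4 in LIF against control and 0 to 0 in NGAL against control. They ranged from 0 to 1 in LIF day 7 against day 1, 3 to 4 in NGAL, 1 to 2 in ANX, 4 to 5 in LIF against NGAL, 1 to 1 in LIF against ANX, 3 to 4 in NGAL against ANX, 6 to 8 in induced day 7 against fresh and 0 to 1 in the test of inducer by day. The 1 gained there was Stra6, without NGAL day 7 replicate 2 (adjusted p = 0.0426). Over all settings, sign changes of values called in neither fit numbered 76, the largest of them 0.49 in size.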
